A study of Mus musculus with 6 samples.

Results

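Semaphorins, plexins, ephrins, Eph receptors, Slits, Robos, netrins and Unc5 receptors are the guidance genes, first known for steering growing axons and vessels. They were followed here in RNA of kidney glomeruli after deletion of Parva in podocytes. The members were chosen by symbol: 68 of the 27179 features of the deposited table carried such a symbol, and 57 of these reached a mean of at least 10 normalised counts over the 6 libraries, as did 13946 features in all. The 68 comprise 20 semaphorins (7 of class 3 and 13 others), 9 plexins, 8 ephrins, 14 Eph receptors, 7 Slit and Robo genes and 10 netrin and Unc5 genes.

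The KO group held 3 mice (KO-1 to KO-3) with both copies of Parva floxed and a Cre recombinase transgene that is active in podocytes. The WT group held 3 mice (WT-1 to WT-3) of the genotype Parva-fl/fl, so both groups carried the floxed alleles and differed in Cre. All were males aged 9 weeks on a mixed C57BL/6 background, and the protocol that covers both groups speaks of mild proteinuria. Parva encodes alpha-parvin, an actin-binding protein of the integrin-linked kinase complex at cell-matrix adhesions. Glomeruli were collected whole after perfusion with magnetic beads, so endothelial, mesangial and other cells without Cre contribute to every value, and in such bulk RNA fewer cells of a type and less RNA per cell cannot be told apart.

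As background, semaphorins are secreted or membrane-bound ligands that signal through plexins, with neuropilins as co-receptors for most of class 3. Ephrins and Eph receptor kinases sit on neighbouring cells and signal in both directions. Slits are secreted ligands of Robo receptors, and secreted netrins such as netrin-1 act through Unc5 receptors, Dcc and neogenin. The lipid-anchored Ntng1 and Ntng2 are counted with the netrins by symbol only, and these receptors are not meant for them. These families converge on small GTPases and the actin cytoskeleton. In the glomerulus, Robo2 and ephrin-B1 are known podocyte proteins tied to the nephrin complex, and Plexin-D1, Robo4, Unc5b and EphB4 are known from vascular endothelium.

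Depth and cell composition differed between libraries. Whole reads recovered from the normalised counts were 11886828 to 20015813 per KO library and 14456490 to 20552984 per WT library, and 10 features with a peak in a single library (30 times any other library or more) took 0.239% to 28.5% of the reads of a KO library and 17.4% to 32.4% of a WT library. None of the 10 is a guidance gene. Parva had 2288, 2338 and 1942 normalised counts in the KO libraries, against 6585, 7519.7 and 7889.8 in the WT libraries (log2 fold change -1.74, SE 0.12, limma adjusted p = 0.0106), and a count per gene does not show which exons the remaining reads cover. The mean log2 level of 24 proximal tubule markers was 12.7 to 13.3 in KO and 11.2 to 12.4 in WT, with 12.4 in WT-1 and 11.2 in each of the other 2 WT libraries. In the proximal tubule list 21 of 24 markers passed as higher and none as lower, and its defining gene Lrp2 had 8462, 12522 and 11098 normalised counts in KO against 6293, 2883 and 2756 in WT. The podocyte gene Nphs1 had 18869, 16220.5 and 12338 in KO against 17289, 20698 and 20543 in WT, the endothelial gene Pecam1 4291, 3560.0 and 4444 against 5255, 6396 and 6144 and the mesangial gene Pdgfrb 3357, 2983 and 3003 against 4910.2, 6908 and 7411, so the labelled glomerular cell types were present in each library. In the other direction, 19 of 24 glomerular endothelial markers, 13 of 18 mesangial markers and 10 of 24 podocyte markers passed as lower and none as higher. The mean log2 level of the endothelial list was 10.9 to 11.3 in KO and 11.6 to 11.8 in WT. That of the mesangial list was 10.5 to 10.6 in KO and 10.9 to 11.1 in WT, and that of the podocyte list was 11.9 to 12.4 in KO and 12.4 to 12.7 in WT. Of 18 distal tubule and collecting duct markers, 3 passed as higher (9.16 to 10.3 in KO, 7.77 to 9.41 in WT), and of 11 parietal epithelium markers 4 passed as higher and 1 as lower (8.21 to 8.78 in KO, 7.43 to 8.04 in WT). None of 17 immune markers passed (5.20 to 7.32 in KO, 5.22 to 6.20 in WT), and KO-3 held the highest level of that list. Of 6 smooth muscle and renin genes, 1 passed as higher and 3 as lower (8.94 to 9.38 in KO, 9.40 to 9.55 in WT). The part of these cell types in the results below was not tested beyond the fit with the proximal tubule level.

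**Figure D1:**
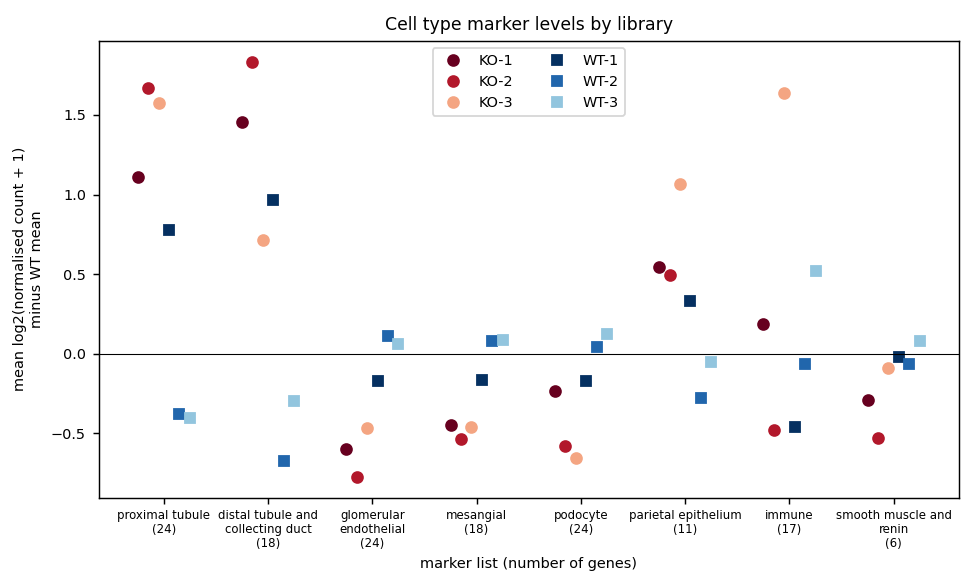
Mean log2(normalised count + 1) of each marker list in each library, minus the mean of the 3 WT libraries; circles are KO, squares are WT, and the number of genes in each list is in brackets. All KO values of the proximal tubule list exceed all WT values, WT-1 lies closest to KO, and the endothelial, mesangial and podocyte lists are lower in every KO library.

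Of the 57 guidance genes tested, 10 were higher and 20 lower in KO than in WT, and 27 did not pass the test. The test was limma on log2(normalised count + 1) over all 13946 features, with a Benjamini-Hochberg adjusted p of 0.05 as threshold. Over all features, 13.5% passed as higher and 8.58% as lower, 22.1% in either direction. The libraries of KO and WT did not overlap in 33 guidance genes, 10 with KO above WT and 23 with KO below, where 45.1% of all features did not overlap (23.2% above and 21.9% below). In edgeR on the recovered reads, 28 guidance genes passed, against 20.4% of all features. The median log2 fold change was -0.34 over the 57 genes and -0.01 over all features. The higher genes were Sema3b, Sema3c, Sema4a, Sema4d, Sema4g, Plxnb2, Efna5, Epha1, Epha6 and Ephb2. The lower genes were Sema4c, Sema5a, Sema6a, Sema6b, Sema6d, Plxna1, Plxna2, Plxnd1, Efna1, Efnb1, Epha3, Ephb1, Ephb4, Robo1, Robo2, Robo4, Slit3, Ntn4, Ntng2 and Unc5b.

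The count of calls depended on which libraries were in the fit. Without KO-2, KO-3, WT-2 or WT-3, no guidance gene passed in limma (33, 34, 31 and 31 of them had an unadjusted p below 0.05), and none passed in edgeR without the same libraries (32, 34, 31 and 31 at an unadjusted p below 0.05). Across all features limma then called 4, 3, 1 and 0 genes. Leaving out KO-1 left 21 guidance genes past the threshold, 19 of the 30 and 2 others (Sema3g and Sema3e), in limma, and 18 in edgeR, where 28 passed with all libraries. The 11 that no longer passed in limma included Sema4g, Sema6b, Sema6d, Plxnb2, Plxna1, Plxna2 and Efna1. Without WT-1, 34 passed in limma and 33 in edgeR, the 34 being 29 of the 30 and 5 others (Sema3g, Sema3e, Efnb2, Slit2 and Ntn1). The direction of each of the 30 was the same with any single library left out. None of the 57 passed in limma without a variance trend (36 at an unadjusted p below 0.05), and 33 passed in DESeq2.

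**Figure D2:**
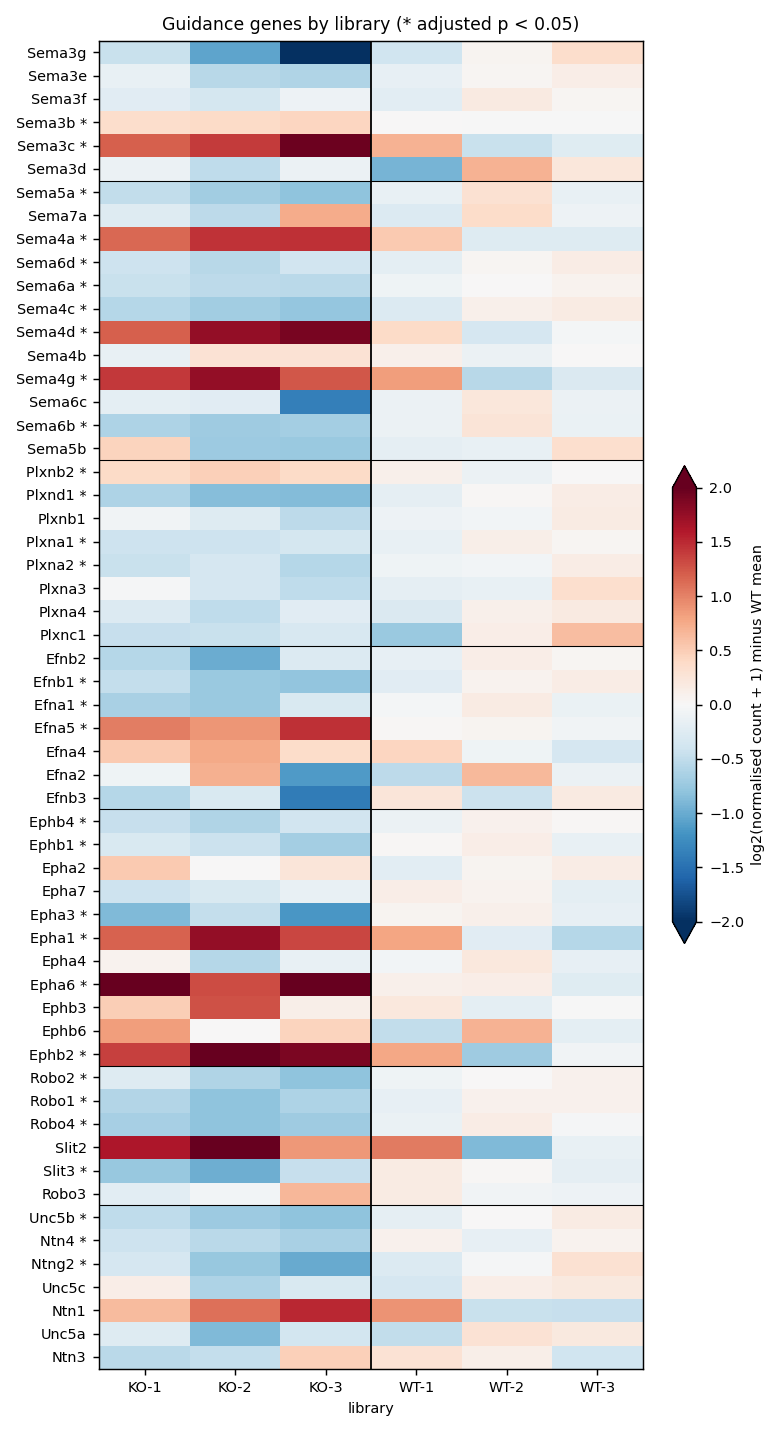
Levels of the 57 tested guidance genes in each library, as log2(normalised count + 1) minus the mean of the 3 WT libraries (red above, blue below), in family blocks and ordered by mean within each. The genes marked with an asterisk are the 30 past an adjusted p of 0.05, and WT-1 is shaded toward the KO libraries in several genes, among them Slit2, Ntn1, Epha1 and Sema4g.

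Levels were compared between genes per kilobase of annotated exon (GENCODE M21), as normalised counts per kilobase. The length merged the exons of all annotated transcripts of a gene. The annotation used for counting is not given, so the ranks are approximate. Sema3g, a secreted semaphorin, had the highest mean level of all members, with 2048 in KO and 4373 in WT. Next came the transmembrane ephrins Efnb1, with 823 in KO and 1312 in WT, and Efnb2, with 495 in KO and 744 in WT. Of the 10 highest members in WT, 8 were also among the 10 highest in KO. The plexin Plxnb2 was at rank 4 in KO and rank 10 in WT, with a level per kilobase of 404 in KO and 303 in WT, and Plxnd1 was at rank 11 in KO and rank 7 in WT, with 220.1 in KO and 377 in WT. Near the bottom of the tested genes stood Ephb2, with 3.06 in KO and 0.906 in WT.

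**Figure D3:**
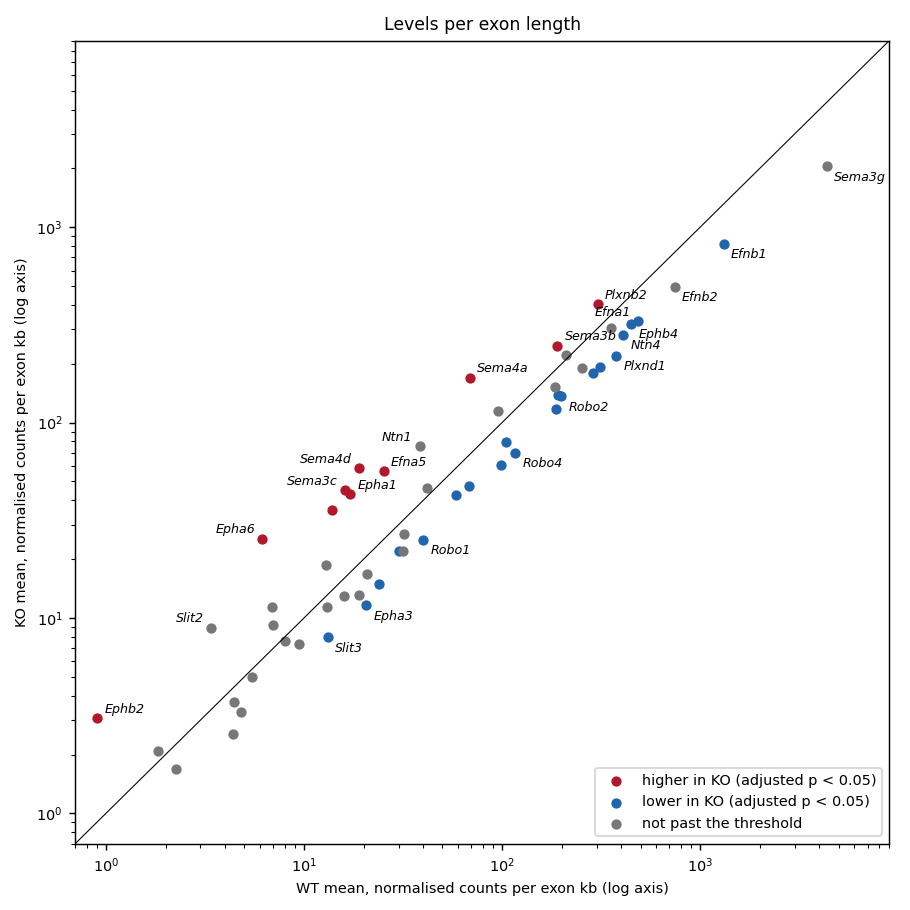
Mean normalised counts per kilobase of exon of each tested guidance gene in KO (vertical axis) and WT (horizontal axis), both axes logarithmic, with the line of equal levels. The most abundant members, from Sema3g and Efnb1 to Plxnd1, lie mostly below the line, and Plxnb2, Sema3b and Sema4a are the most abundant of the genes past the threshold above the line.

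Among the secreted class 3 semaphorins, Sema3b and Sema3c rose and the other 4 tested did not pass. Sema3c had 249.8, 288 and 425 normalised counts in the KO libraries, against 175, 79.2 and 91.4 in the WT libraries (log2 fold change 1.52, SE 0.33, limma adjusted p = 0.0294; NCBI Gene 20348, mm10 chromosome 5, 17574816 to 17730268). Sema3c, which acts through neuropilins and plexins, was highest in KO-3, and WT-1 lay between the other 2 WT libraries and KO-1. Sema3b had 1153, 1177 and 1222 normalised counts in the KO libraries, against 916, 902 and 905 in the WT libraries (log2 fold change 0.38, SE 0.07, limma adjusted p = 0.0286; NCBI Gene 20347; mm10 chromosome 9, 107597674 to 107609241). The libraries of each group agreed closely in this gene, with means of 1184 ± 35.4 in KO and 907 ± 7.48 in WT (SD, n = 3 each). Sema3g had 14237, 9326 and 4329.5 normalised counts in the KO libraries, against 14717, 20093 and 24754 in the WT libraries (log2 fold change -1.22, SE 0.42, limma adjusted p = 0.075; NCBI Gene 218877; mm10 chromosome 14, 31217873 to 31230352). Every KO library was below every WT library in Sema3g, a semaphorin known from podocytes and vessels, and KO-1 lay just under WT-1; the highest of the KO libraries was 3.29 times the lowest. The difference passed without KO-1 (log2 fold change -1.61, limma adjusted p = 0.0446) and without WT-1 (-1.42, 0.0458), and in DESeq2 (-1.09, 0.0194). Over all its alternatives the adjusted p of Sema3g ran from 0.0194 to 1. Sema3e had 2135, 1602 and 1547 normalised counts in the KO libraries, against 2098, 2411 and 2580.3 in the WT libraries (log2 fold change -0.43, limma adjusted p = 0.0712). KO-1 overlapped the WT range in Sema3e, a ligand that binds Plexin-D1 without a neuropilin. Neither Sema3f, a neuropilin-2 ligand (log2 fold change -0.22, limma adjusted p = 0.22), nor the weakly expressed Sema3d (log2 fold change -0.25, limma adjusted p = 0.72) passed. Sema3a, the founding neuropilin-1 ligand, held 8 reads in all 6 libraries together and was not tested.

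Among the membrane-bound semaphorins of class 4, Sema4a, Sema4d and Sema4g rose, Sema4c fell and Sema4b did not pass (log2 fold change 0.14, limma adjusted p = 0.521). Sema4d had 328, 486 and 534 normalised counts in the KO libraries, against 187, 113 and 139 in the WT libraries (log2 fold change 1.61, SE 0.24, limma adjusted p = 0.0286; NCBI Gene 20354; mm10 chromosome 13, 51685529 to 51793678). Sema4d is the ligand of Plexin-B1, and its lowest KO library, KO-1, was well above its highest WT library, WT-1. Sema4a had 792, 978 and 985 normalised counts in the KO libraries, against 517, 298 and 298 in the WT libraries (log2 fold change 1.35, SE 0.22, limma adjusted p = 0.0286; NCBI Gene 20351; mm10 chromosome 3, 88435959 to 88461182). Sema4g had 292, 372 and 261 normalised counts in the KO libraries, against 197, 74.2 and 88.9 in the WT libraries (log2 fold change 1.47, limma adjusted p = 0.0323). In both genes WT-1 was the highest WT library, as it was for the proximal tubule markers. Sema4c had 299, 275 and 262 normalised counts in the KO libraries, against 370.4, 480.0 and 503 in the WT libraries (log2 fold change -0.68, limma adjusted p = 0.0286). Sema4c is a ligand of Plexin-B2. Of the Sema4c exon bases, 334 overlap D430040D24Rik on the other strand.

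Of the class 5 and 6 genes, Sema5a, Sema6a, Sema6b and Sema6d fell. Sema5a had 2451, 2134 and 1990.1 normalised counts in the KO libraries, against 3116, 4254 and 3128 in the WT libraries (log2 fold change -0.66, SE 0.15, limma adjusted p = 0.0304; NCBI Gene 20356; mm10 chromosome 15, 32244813 to 32696341). Sema5a, a transmembrane semaphorin with thrombospondin repeats, had the highest mean count of the membrane-bound semaphorins. Sema6a had 434, 411 and 408 normalised counts in the KO libraries, against 561, 599 and 626 in the WT libraries (log2 fold change -0.51, limma adjusted p = 0.0286). Sema6d had 462, 420.1 and 473 normalised counts in the KO libraries, against 538, 636 and 685 in the WT libraries (log2 fold change -0.45, limma adjusted p = 0.0368). Sema6a and Sema6d are transmembrane ligands of class A plexins, and the groups did not overlap in either gene. Sema6b had 61.1, 57.4 and 59 normalised counts in the KO libraries, against 86.9, 113 and 86.4 in the WT libraries (log2 fold change -0.67, limma adjusted p = 0.0394). Its KO libraries were nearly level. The call did not hold with no filter on low values (limma adjusted p = 0.0611) or without KO-1 (0.0732). Sema6c did not pass (log2 fold change -0.59, limma adjusted p = 0.204). Sema7a had 572, 475 and 1139.6 normalised counts in the KO libraries, against 566, 877 and 637 in the WT libraries (log2 fold change -0.01, limma adjusted p = 0.985). Sema7a, a lipid-anchored semaphorin that binds Plexin-C1 and integrins, was highest in KO-3, the library with the highest immune marker level. The other libraries did not keep the same order. WT-2 came next in Sema7a, and WT-3 in the immune list (6.20, against 5.61 in WT-2). A link between them was not tested. Sema5b was weakly expressed and did not pass (log2 fold change -0.34, limma adjusted p = 0.547), and Sema4f held 1 read in all.

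Of 8 plexins tested, the semaphorin receptors, Plxnd1, Plxna1 and Plxna2 fell, Plxnb2 rose and 4 did not pass. Plxnd1 had 1792, 1524 and 1505 normalised counts in the KO libraries, against 2426, 2785 and 3040.4 in the WT libraries (log2 fold change -0.77, SE 0.12, limma adjusted p = 0.0286; NCBI Gene 67784; mm10 chromosome 6, 115954811 to 115995339). Plexin-D1 is a receptor of vascular endothelium, and its lowest WT library exceeded its highest KO library. Plxnb2 had 3049, 3263 and 3054 normalised counts in the KO libraries, against 2520.3, 2155 and 2351 in the WT libraries (log2 fold change 0.42, SE 0.09, limma adjusted p = 0.0304; NCBI Gene 140570; mm10 chromosome 15, 89155546 to 89182018). The KO libraries lay within a narrow band above WT, with means of 3122 ± 123 in KO and 2342 ± 183 in WT (SD, n = 3 each). Plxna1 had 709, 708 and 740.5 normalised counts in the KO libraries, against 851, 1019 and 966 in the WT libraries (log2 fold change -0.39, limma adjusted p = 0.0329). Plxna2 had 379, 410.4 and 348 normalised counts in the KO libraries, against 489, 496 and 571 in the WT libraries (log2 fold change -0.45, limma adjusted p = 0.0335). Both are class A plexins, which pair with neuropilins or bind class 6 semaphorins, and neither gene overlapped between groups. Exons of Plxna1 share 970 bases with the antisense gene Gm26811. Plxnb1 (log2 fold change -0.28, limma adjusted p = 0.165), Plxna3 (log2 fold change -0.30, limma adjusted p = 0.306), Plxna4 (log2 fold change -0.34, limma adjusted p = 0.198) and Plxnc1 (log2 fold change -0.41, limma adjusted p = 0.438) did not pass, and Plxnb3 was below the filter. Neuropilin-1, the main co-receptor of class 3 semaphorins and of VEGF, fell with Plxnd1: Nrp1 had 15082, 14561 and 15924 normalised counts in the KO libraries, against 23619, 30679.7 and 26645 in the WT libraries (log2 fold change -0.82, SE 0.17, limma adjusted p = 0.0286). Neuropilin-2 had 372, 240.4 and 408 in KO against 461, 453 and 453 in WT and did not pass (log2 fold change -0.46, limma adjusted p = 0.124).

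**Figure D4:**
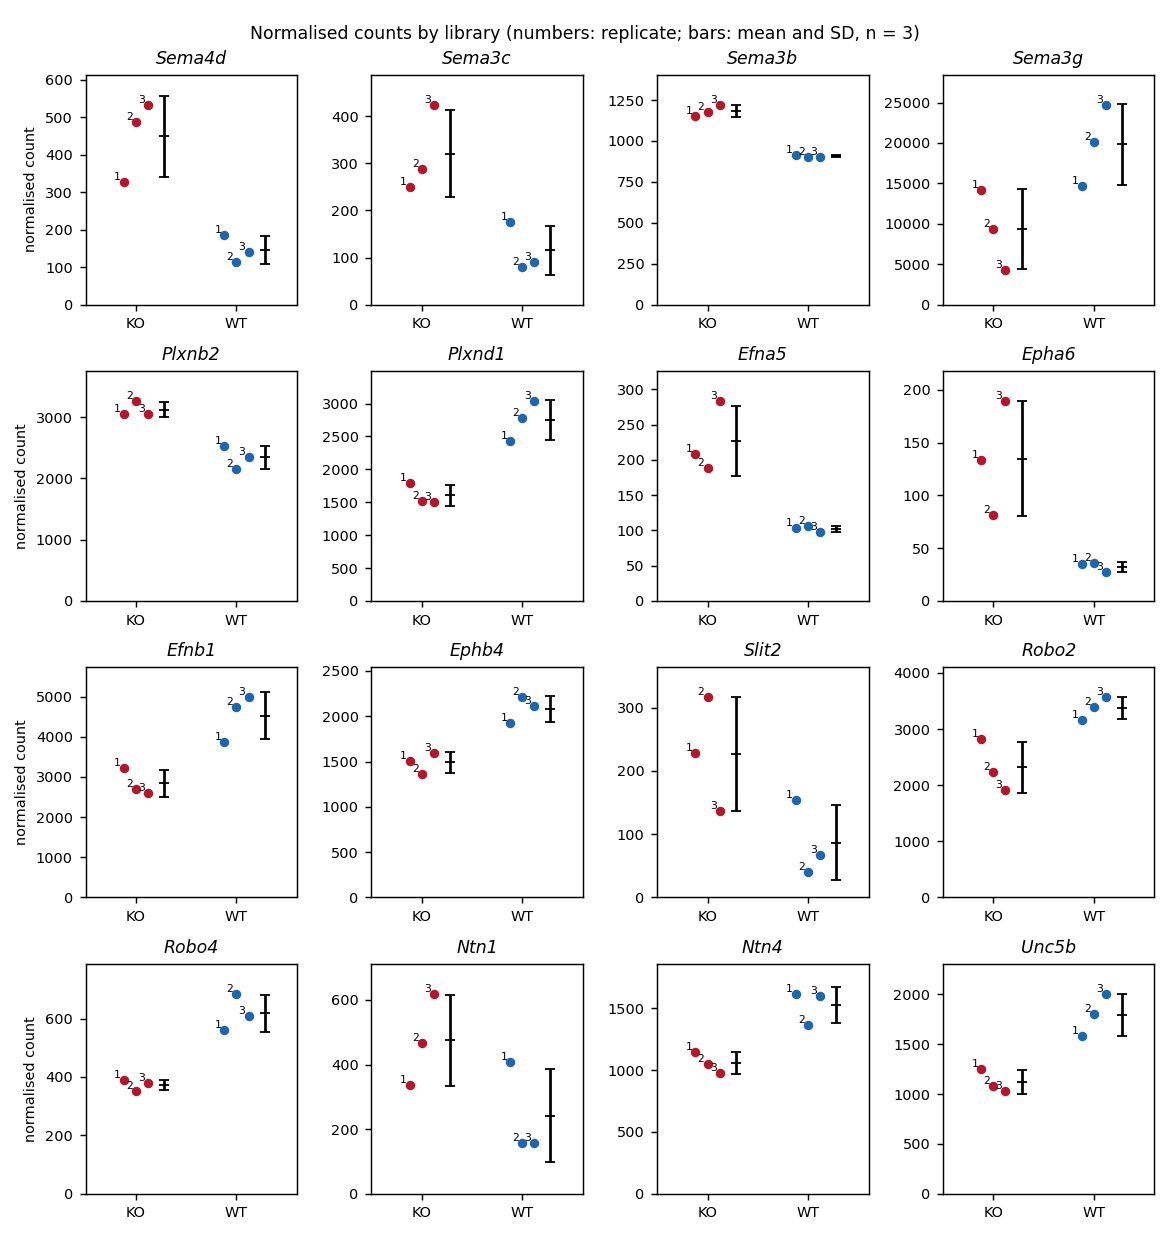
Normalised counts of 16 guidance genes in each library (dots, numbered by replicate), KO on the left and WT on the right of each panel, with the mean and SD of 3 libraries. Panels such as Sema3b, Plxnb2, Plxnd1, Efna5, Robo4 and Unc5b show separate groups, whereas WT-1 lies within the KO range in Slit2 and Ntn1.

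Ephrins and Eph receptors held 4 of the 10 increases and 5 of the 20 decreases. Of the 7 ephrins tested 42.9% passed, and of the 11 Eph receptors 54.5%, near the 52.6% of the 57 guidance genes. Over all features 22.1% passed. Among 7 ephrins tested, Efna5 rose, Efna1 and Efnb1 fell and 4 did not pass. Efna5 had 208, 188 and 283 normalised counts in the KO libraries, against 103, 106 and 97.1 in the WT libraries (log2 fold change 1.12, SE 0.18, limma adjusted p = 0.0286; NCBI Gene 13640; mm10 chromosome 17, 62602957 to 62881317). Ephrin-A5 is a lipid-anchored ligand of EphA receptors, and its WT libraries differed by little while KO-3 stood above KO-1 and KO-2. Efnb1 had 3227, 2706 and 2592 normalised counts in the KO libraries, against 3864, 4742 and 4983 in the WT libraries (log2 fold change -0.67, SE 0.14, limma adjusted p = 0.0286; NCBI Gene 13641; mm10 chromosome X, 99136061 to 99149022). Ephrin-B1 is known from podocytes at the slit diaphragm, and its groups did not overlap. Efnb2 had 3408, 2551 and 4212 normalised counts in the KO libraries, against 4513, 5568 and 5212 in the WT libraries (log2 fold change -0.61, limma adjusted p = 0.0551). Ephrin-B2, the arterial ligand of EphB4, was lower in all 3 KO libraries than in any WT library without passing. It passed in DESeq2 (log2 fold change -0.59, adjusted p = 0.0238), with upper quartile scaling (-0.67, 0.0481) and without WT-1 in limma (-0.70, 0.0349) and edgeR (-0.67, 0.0402), and its adjusted p over all alternatives ran from 0.0238 to 1. Efna1 had 568, 532 and 714 normalised counts in the KO libraries, against 864, 998 and 809 in the WT libraries (log2 fold change -0.56, limma adjusted p = 0.0336). Efna2 (log2 fold change -0.17, limma adjusted p = 0.841), Efna4 (log2 fold change 0.55, limma adjusted p = 0.21) and Efnb3 (log2 fold change -0.76, limma adjusted p = 0.239) had low counts and did not pass, and Efna3 was not tested.

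Of 11 Eph receptors tested, Epha1, Epha6 and Ephb2 rose, Epha3, Ephb1 and Ephb4 fell and 5 did not pass. Epha6 had 134, 81.2 and 189 normalised counts in the KO libraries, against 34.8, 35.6 and 27.2 in the WT libraries (log2 fold change 1.95, SE 0.32, limma adjusted p = 0.0286; NCBI Gene 13840; mm10 chromosome 16, 59641433 to 60610911). The 3 KO libraries of this EphA receptor kinase, though uneven, all lay far above WT-2, the highest of WT. Ephb2 had 28.3, 46.6 and 40.8 normalised counts in the KO libraries, against 18.5, 5.94 and 9.88 in the WT libraries (log2 fold change 1.77, limma adjusted p = 0.0339). Epha1 had 140.0, 211 and 156 normalised counts in the KO libraries, against 108, 52.5 and 41.2 in the WT libraries (log2 fold change 1.42, limma adjusted p = 0.0347). WT-1 was the highest WT library in both, and in Epha1 it lay between the other WT libraries and KO-1. A further limit on Epha1 is the 236 exon bases it shares with Zyx on the other strand. Epha6 shares 107 exon bases with the antisense gene Gm9017. Ephb4 had 1505, 1365 and 1599 normalised counts in the KO libraries, against 1921, 2209 and 2108 in the WT libraries (log2 fold change -0.48, SE 0.10, limma adjusted p = 0.0286; NCBI Gene 13846; mm10 chromosome 5, 137350109 to 137374522). EphB4, the venous partner of ephrin-B2, and Ephb1 were the receptors of highest mean count. Ephb1 had 1085, 992 and 837 normalised counts in the KO libraries, against 1357, 1471 and 1202 in the WT libraries (log2 fold change -0.47, limma adjusted p = 0.039). Epha3 had 95.7, 128 and 79.4 normalised counts in the KO libraries, against 185, 192 and 159.7 in the WT libraries (log2 fold change -0.84, limma adjusted p = 0.0317). Neither Ephb1 nor Epha3, a receptor that binds ephrin-A5, overlapped between groups. Epha2, an epithelial receptor (log2 fold change 0.26, limma adjusted p = 0.258), Epha4 (log2 fold change -0.22, limma adjusted p = 0.484), Epha7 (log2 fold change -0.29, limma adjusted p = 0.192), Ephb3 (log2 fold change 0.63, limma adjusted p = 0.177) and Ephb6 (log2 fold change 0.43, limma adjusted p = 0.443) did not pass. Epha5, Epha8 and Epha10 had 0 reads in each library, which allows up to 3 reads (2.47 to 3.4 normalised counts per library, counting error only).

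Promoter sequences of 4 members that changed are shown so that the 2 increases and the 2 decreases can be read side by side: Epha6 (chr16:60605482-60605781, minus strand) and Efna5, a ligand of EphA receptors (chr17:62881268-62881567, minus strand), which rose, and the vascular receptors Ephb4 (chr5:137349859-137350158, plus strand) and Unc5b (chr10:60831532-60831831, minus strand), which fell. They come from RefSeq on GRCm38.p6, the assembly also called mm10, run from 250 bases before to 50 after the annotated start, and read 5′ to 3′ along the gene. The Epha6 window lies inside the RefSeq span of the gene given above, which on this minus strand begins further upstream, at 60610911. Capitals mark GGGCGG, the GC box bound by Sp and Krüppel-like factors, and CCGGAA, the core of many ETS sites, on either strand (GGGCGG reads CCGCCC and CCGGAA reads TTCCGG on the other strand).
Epha6: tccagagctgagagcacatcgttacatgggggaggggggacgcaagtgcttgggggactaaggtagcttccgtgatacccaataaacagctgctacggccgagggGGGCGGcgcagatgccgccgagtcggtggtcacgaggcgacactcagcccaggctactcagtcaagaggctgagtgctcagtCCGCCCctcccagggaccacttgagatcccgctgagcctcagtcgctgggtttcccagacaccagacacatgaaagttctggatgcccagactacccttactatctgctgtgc
Efna5: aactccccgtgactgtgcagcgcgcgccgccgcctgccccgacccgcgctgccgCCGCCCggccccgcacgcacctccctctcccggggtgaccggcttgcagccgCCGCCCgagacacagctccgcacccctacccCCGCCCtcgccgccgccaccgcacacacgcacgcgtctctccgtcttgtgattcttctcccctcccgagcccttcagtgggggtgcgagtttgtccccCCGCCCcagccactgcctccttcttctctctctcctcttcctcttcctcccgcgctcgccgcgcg
Ephb4: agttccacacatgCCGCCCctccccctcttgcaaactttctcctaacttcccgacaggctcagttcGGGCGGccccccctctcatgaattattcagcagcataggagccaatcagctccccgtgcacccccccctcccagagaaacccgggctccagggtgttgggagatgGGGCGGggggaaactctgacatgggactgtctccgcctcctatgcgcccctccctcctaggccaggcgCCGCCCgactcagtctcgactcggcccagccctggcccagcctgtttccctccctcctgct
Unc5b: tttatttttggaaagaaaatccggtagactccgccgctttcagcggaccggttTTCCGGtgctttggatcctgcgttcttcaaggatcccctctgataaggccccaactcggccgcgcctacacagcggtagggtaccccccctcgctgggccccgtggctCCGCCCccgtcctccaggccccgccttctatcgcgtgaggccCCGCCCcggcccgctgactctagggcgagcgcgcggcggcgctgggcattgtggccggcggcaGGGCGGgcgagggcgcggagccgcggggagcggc
The GC box occurred 2 times in Epha6, 4 in Efna5, 4 in Ephb4 and 3 in Unc5b, so it was present in both directions of change. CCGGAA was found 1 time, in Unc5b. No 2 matches overlapped in these 4 windows. The table held a promoter for 50 of the 57 genes tested, 38 of which (76%) carried a GC box in some listed promoter, against 67.5% of the 10838 tested genes with a promoter. CCGGAA was in 7 of the 50 (14%), against 29.9% of those 10838. A match describes letters in this window and no binding was measured.

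In the Slit and Robo family, all 3 well-expressed receptors and the ligand Slit3 fell. Robo2 had 2816, 2226 and 1921 normalised counts in the KO libraries, against 3167, 3397 and 3565 in the WT libraries (log2 fold change -0.56, SE 0.15, limma adjusted p = 0.0381; NCBI Gene 268902; mm10 chromosome 16, 73891976 to 75447443). Robo2, the Slit receptor of podocytes, binds the adaptor Nck, and its highest KO library, KO-1, was below the lowest WT library. Robo4 had 388, 352 and 378 normalised counts in the KO libraries, against 559, 685 and 608 in the WT libraries (log2 fold change -0.72, SE 0.11, limma adjusted p = 0.0286; NCBI Gene 74144; mm10 chromosome 9, 37401902 to 37414023). Robo1 had 439, 376 and 426 normalised counts in the KO libraries, against 587, 693 and 695 in the WT libraries (log2 fold change -0.67, SE 0.11, limma adjusted p = 0.0286; NCBI Gene 19876; mm10 chromosome 16, 72027518 to 73047491). Robo4 is the receptor restricted to endothelium in most tissues, and in both Robo4 and Robo1 the 3 KO libraries spanned a narrower range than the 3 WT libraries. Slit3 had 47, 40.1 and 57.8 normalised counts in the KO libraries, against 89.1, 81.2 and 70.0 in the WT libraries (log2 fold change -0.73, limma adjusted p = 0.0479). The call of Slit3 lay at the threshold: its adjusted p over all alternatives ran from 0.0367 to 1, and it did not pass in edgeR (0.0559), with a robust prior (0.0513), with a minimum mean of 50 (0.0535), with no filter (0.0742), or in limma without any single library (0.0705 to 0.148). Slit2 had 229, 316 and 136 normalised counts in the KO libraries, against 153, 39.6 and 66.7 in the WT libraries (log2 fold change 1.52, SE 0.51, limma adjusted p = 0.0684; NCBI Gene 20563; mm10 chromosome 5, 47981291 to 48307735). Slit2, the main ligand of Robo1 and Robo2, had a higher KO mean, but KO-3 was below WT-1. It passed in DESeq2 (log2 fold change 1.40, adjusted p = 0.0207), and without WT-1 the log2 fold change of Slit2 was 2.04 (limma adjusted p = 0.00692, within a range over all alternatives from 0.00692 to 1). Robo3 was low and did not pass (log2 fold change 0.13, limma adjusted p = 0.814), and Slit1 held 1 read in all.

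Among netrins and their receptors, Ntn4, Ntng2 and Unc5b fell and 4 of the 7 tested did not pass. Ntn4 had 1147, 1046 and 973 normalised counts in the KO libraries, against 1618, 1362 and 1602 in the WT libraries (log2 fold change -0.53, SE 0.11, limma adjusted p = 0.0286; NCBI Gene 57764; mm10 chromosome 10, 93641049 to 93745972). Netrin-4 is a basement membrane protein that binds laminin, and its groups were separate. Unc5b had 1252, 1081 and 1029 normalised counts in the KO libraries, against 1583, 1800.3 and 2006 in the WT libraries (log2 fold change -0.68, SE 0.12, limma adjusted p = 0.0286; NCBI Gene 107449; mm10 chromosome 10, 60762594 to 60831581). Unc5b, the netrin receptor of endothelium, had all KO libraries below WT-1, the lowest of WT. Ntng2 had 967, 724 and 611 normalised counts in the KO libraries, against 1014, 1201 and 1505 in the WT libraries (log2 fold change -0.70, limma adjusted p = 0.047). The lipid-anchored Ntng2 was uneven within both groups, with KO-1 just below WT-1, and did not pass in edgeR (adjusted p = 0.0516, within a range over all alternatives from 0.0144 to 1). Of the Ntng2 exon bases, 558 overlap 6530402F18Rik on the same strand. Ntn1 had 337, 468 and 619 normalised counts in the KO libraries, against 407, 158 and 158 in the WT libraries (log2 fold change 1.08, SE 0.39, limma adjusted p = 0.0866; NCBI Gene 18208; mm10 chromosome 11, 68209364 to 68386826). Netrin-1, a secreted guidance cue also made by tubule epithelium, lay within the KO range in WT-1 and below it in WT-2 and WT-3. Without WT-1 its log2 fold change was 1.53 (limma adjusted p = 0.00348, within a range over all alternatives from 0.00348 to 1). The receptors Unc5a (log2 fold change -0.51, limma adjusted p = 0.218) and Unc5c (log2 fold change -0.26, limma adjusted p = 0.402) and the netrin Ntn3 (log2 fold change -0.18, limma adjusted p = 0.749) did not pass. Of the other netrin receptors, neogenin (Neo1) had 832, 768 and 592 in KO against 752, 751 and 786 in WT (log2 fold change -0.08, limma adjusted p = 0.699), and Dcc was below the filter, at no more than 4.94 normalised counts in any library. Ntng1, Unc5d and Ntn5 were also below it, with 12, 2 and 0 reads in all.

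Co-receptors and intracellular effectors of these pathways were taken from a list of 71 genes, of which 65 were tested. In it 7 genes rose and 13 fell (30.8% past the threshold), where 22.1% of all features passed, 13.5% as higher and 8.58% as lower, and the list had a median log2 fold change of -0.23. The 5 increases with the smallest p were Srgap3, Farp2, Chn2, Grb7 and Ngef. Srgap3 had 266, 278 and 265 normalised counts in the KO libraries, against 104, 79.2 and 122 in the WT libraries (log2 fold change 1.42, SE 0.18, limma adjusted p = 0.0286). Srgap3 is a GTPase-activating protein of the Slit-Robo pathway, and its KO libraries were nearly level and above all WT libraries. Ngef, an exchange factor downstream of EphA receptors, Chn2, a Rac-directed chimaerin, Grb7, an SH2 adaptor, and Farp2, an exchange factor of plexin signalling, had log2 fold changes of 1.65, 1.24, 1.42 and 0.80. The 5 decreases with the smallest p were Arhgef15, Gpc1, Adgrl3, Rnd3 and Nrp1. Arhgef15 had 1445, 1279 and 1336 normalised counts in the KO libraries, against 1991, 2345 and 2461 in the WT libraries (log2 fold change -0.74, SE 0.11, limma adjusted p = 0.0286). Arhgef15 encodes a guanine nucleotide exchange factor that is known from endothelium and EphA4 signalling. Glypican-1 (Gpc1), a heparan sulphate proteoglycan that binds Slits, Adgrl3, a latrophilin, and Rnd3, an atypical small GTPase, had log2 fold changes of -0.89, -0.96 and -0.65. Without KO-2, KO-3, WT-2 or WT-3 none of these genes passed in limma (25, 33, 25 and 25 at an unadjusted p below 0.05) or edgeR (26, 33, 25 and 26).

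The differences changed size when the tubule content of each library was taken into account. A fit with the mean log2 level of the proximal tubule markers beside genotype left no gene of the 13946 past the threshold in limma. Not even Parva passed (limma unadjusted p = 8.58e-05, adjusted p = 0.55), though its log2 difference was -1.48 with the covariate and -1.74 without. In this fit 433 features (3.1%) had an unadjusted p below 0.05. Among the 57 guidance genes these were 10: Sema3b, Sema4a, Sema4d, Plxnd1, Efna5, Epha2, Epha3, Epha6, Robo4 and Ntn4. Of these, Epha2 was not past the threshold without the covariate, and its log2 difference was 0.77 with it and 0.26 without. Some members kept nearly their whole fitted difference with the covariate, at larger standard errors. These were 0.65 with it and 0.32 without for Epha6, 0.36 and 0.18 for Efna5, and 0.27 and 0.14 for Efna1. The unadjusted p of Efna1 with the covariate was 0.0895 in limma. Epha6 had a log2 difference of 1.90 with the covariate and 1.95 without, Efna5 1.06 and 1.12, Ntn4 -0.59 and -0.53, Efna1 -0.54 and -0.56, and Sema3b 0.34 and 0.38. Other increases shrank: Sema4g was at 0.09 with the covariate against 1.47 without, Sema3c at 0.27 against 1.52, Ephb2 at 0.28 against 1.77, Sema4a at 0.38 against 1.35 and Epha1 at -0.02 against 1.42. Of the 10 higher genes, 6 were left with under 0.5 of their log2 difference and 3 with at least 0.75 of it. Of the 20 lower genes, 8 were left with under 0.5 and 5 with at least 0.75. The endothelial-type receptors Plxnd1, Robo4 and Unc5b stood at -0.39, -0.47 and -0.29 with the covariate, and the podocyte proteins Robo2 and Efnb1 at -0.23 and -0.20. The median log2 difference of the glomerular endothelial markers was -0.65 without the covariate and -0.34 with it. That of the podocyte markers was -0.50 without it and -0.09 with it. Over 6 libraries the tubule level was higher in all of KO than in all of WT, so the share of each in a difference cannot be told apart.

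WT-1, the WT library with the most tubule marker RNA, also lay closest to KO in most of these genes. It was the highest WT library in 8 of the 10 higher guidance genes, where 91.7% of all higher features showed this, and the lowest WT library in 14 of the 20 lower ones, against 81.1% of all lower features. The exceptions among the higher genes were Efna5 and Epha6, with WT-2 highest. The lower genes in which WT-1 was the highest WT library were Slit3 and Ntn4.

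**Figure D5:**
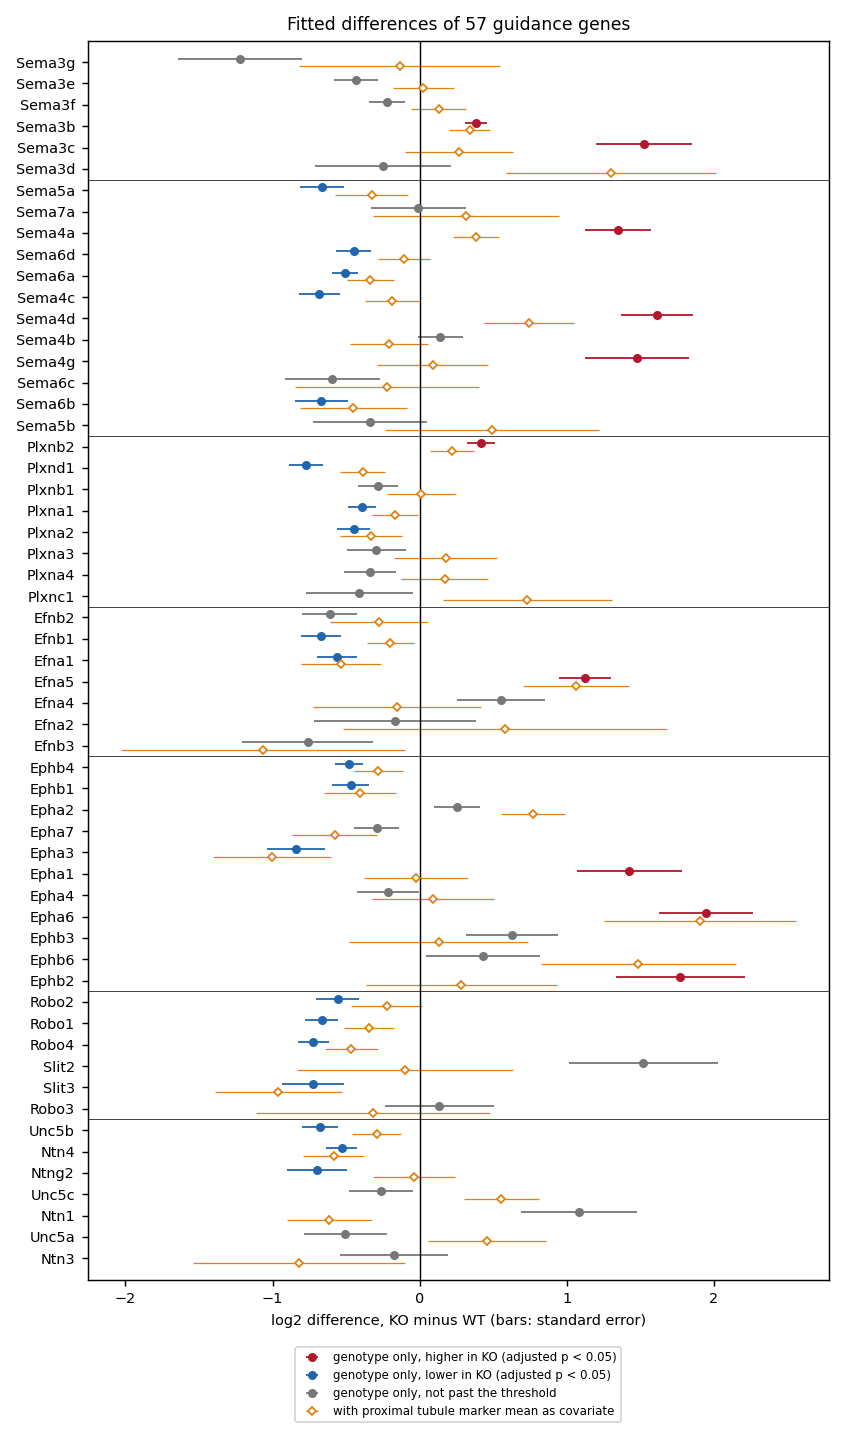
Log2 difference between KO and WT of the 57 tested guidance genes with its standard error, from the fit with genotype alone (filled circles, red higher, blue lower, grey not past the threshold) and from the fit that adds the tubule marker level (open diamonds). Epha6, Efna5, Epha3, Ntn4, Efna1 and Sema3b keep similar values in both fits, whereas Epha1, Sema4g, Sema3c, Ephb2, Slit2 and Ntn1 move to 0.28 or lower.

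Of the 11 guidance genes under the filter, 4 (Epha5, Epha8, Epha10 and Ntn5) had no read in any library, and the others (Sema3a, Sema4f, Plxnb3, Efna3, Slit1, Ntng1 and Unc5d) held 1 to 33 reads over the 6 libraries together, so that a difference between genotypes was not detectable at this depth. In 15 of the 57 tested genes and 8 of the 30 past the threshold, exons overlap those of another annotated gene. The 8 are Sema4a (73 bases), Sema4c (334), Plxna1 (970), Epha1 (236), Epha6 (107), Ephb1 (152), Ephb4 (33) and Ntng2 (558). The strand setting of the counting is not given in the sources used here, so reads of such pairs cannot be told apart.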

How the data were processed

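The deposited table holds normalised counts of 27179 features by NCBI Gene identifier, which are a signal: the reads of a gene over the size factor of its library, as the values of the deposited file show. The submitters' processing notes name bcl2fastq 2.19, cutadapt 1.16.5, HISAT2 2.1, featureCounts 1.6.4, DESeq2 2.11.40.6 and mm10. The sources used here do not give the annotation or strand setting, and the library kit was directional per the labels. All values were whole multiples of a step per library (100% at a tolerance of 0.01), from which whole reads were recovered. The step of WT-2, 0.990, is close to 1, and a separate check of units did not accept its values as recovered reads, though 1.50% of its values above 0 were whole as deposited and 100% were whole over the step. Symbols came from RefSeq on the same assembly (25275 identifiers) and otherwise GENCODE M21 (25293 in all). Unc50, Unc5cl, Slitrk genes and Plxna4os1 were left out as other genes, and Unc5a to Unc5d were kept. The full genotype name of the KO mice is not reported here.

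The main test was limma 3.58.1 (R 4.3.3) with a variance trend on log2(normalised count + 1), genotype as the only term, for features with a mean of at least 10, adjusted over all of them. Fold changes on this scale understate those of low genes. Alternatives were pseudocounts of 0.5 and 5, other filters, TMM and upper quartile scaling, no trend, a robust prior, tests of the recovered reads in edgeR 4.0.16 and in DESeq2 1.42.0, a replicate block, a proximal tubule covariate and leaving out each library, the last also in edgeR as an addition after the data were seen. The steps were tested on simulated data. Libraries of 1 genotype differed by at least 14.0 per degree of freedom in chi-square, so none was the same library sequenced again. Members, lists and tests were chosen with earlier results of these data known. Each tested member is named. Values per library are given for those past the threshold, the 2 of highest mean per family and those whose call changed. Of the co-receptors, Nrp1, Nrp2, Dcc, Neo1 and the 5 smallest p per direction are named.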

Additional observations from a re-analysis of the deposited data

How the results depend on the processing

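The 30 guidance genes past the threshold (20 in the list of co-receptors and effectors) stayed within 1.5 times that count under both other pseudocounts, both other filters, TMM and upper quartile scaling, a robust prior, edgeR (28 and 20) and DESeq2 (33 and 22). The count was 0 and 0 in limma without a variance trend (36 and 31 at an unadjusted p below 0.05), 0 and 0 with the proximal tubule covariate (10 and 5), and 0 and 0 with the replicate block (34 and 22). Leaving out 1 library gave 0 to 34 guidance genes and 0 to 27 co-receptors and effectors in limma, and 0 to 33 and 0 to 28 in edgeR, where the counts without KO-1 were 18 and 7. Deviations from the group means correlated at -0.23, -0.19 and -0.01 for same-numbered libraries. The libraries did not each correlate best with their own number. With 3 libraries per group, these values cannot show whether same-numbered mice were handled as pairs. With the covariate, 19 of the 57 tested genes changed sign, 18 of them not past the threshold in the fit without it. Of the 34 genes followed under the alternatives (the 30 called, Sema3g, Efnb2, Slit2 and Ntn1), those were Epha1 (-0.023), Slit2 (-0.10) and Ntn1 (-0.61). Over 719 refits of the 30 called genes, 1 changed direction, that of Epha1. The cause of these changes was not tested. Depth limits genes near 10 normalised counts, and the 3 libraries per group limit all others.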
